A study of Homo sapiens with 4 samples.

Results

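The HSP70 family is a group of ATP-driven protein chaperones. Its transcripts were followed here in SK-LMS-1, a human cell line from a leiomyosarcoma, a malignant tumour of smooth muscle. The members were HSPA1A, HSPA1B, HSPA1L, HSPA2, HSPA4, HSPA4L, HSPA6, HSPA8, HSPA9 and HSPA14, 10 of the 19381 genes in the deposited tables. They were chosen by gene symbol, in a list drawn up with their treated and untreated values already known. Their own changes are therefore given as a description, with no test. RNA was sequenced in 2 libraries of cells given 50 µM 2-D08 and harvested after 48 h of exposure, and in 2 libraries of untreated cells. 2-D08 is a flavone that blocks conjugation of the small modifier protein SUMO to its targets. No vehicle is stated for the untreated cells. Nothing in the labels tells if replicates are separate cultures, so every p-value here reflects the spread between libraries only, and that spread may be technical.

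HSP70 proteins bind short hydrophobic stretches of unfolded clients and release them in a cycle set by ATP. J-domain proteins deliver clients and trigger ATP hydrolysis, and nucleotide exchange factors, among them the HSP110 proteins, reopen the chaperone. Some members are made constantly (HSPA8 in the cytosol and nucleus, HSPA9 in mitochondria). Others (HSPA1A, HSPA1B, HSPA6) are induced when the transcription factor HSF1 binds alternating GAA and TTC repeats upstream of the gene. SUMO conjugation itself is increased by heat and other proteotoxic stress.

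In 8 of the 10 members both 2-D08-treated libraries lay above both untreated ones in scaled counts, as did 33.8% of the 12906 genes tested. The list was drawn up with these values known, so nothing is read from this count. HSPA6 had 0 counts in both untreated libraries and was read in both treated ones. HSPA1A, HSPA1B and HSPA2 were 2.02-fold to 2.42-fold higher, and HSPA4L, HSPA14, HSPA8 and HSPA4 lay 1.29-fold to 1.53-fold higher. HSPA9 and HSPA1L did not separate the groups. Because HSPA8 is by far the most abundant member, it carried 72.2% of the difference in summed level, as deposited per transcript length. That figure rests on the lengths used.

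The stretches upstream of 4 members are shown to let the letters of the heat shock element be read in the inducible genes HSPA6, HSPA1A and HSPA1B, beside HSPA4 as an example without them. These 4 were picked after the values were seen and stand for no division of the family, since the constitutive HSPA8 also has such matches. Each was taken from the 250 bases before a RefSeq gene start (GRCh38.p14), as far as the first base that lies in an exon annotated in GENCODE release 29. Capitals mark matches to GAANNTTC or TTCNNGAA, which read the same on both strands, and overlapping matches were joined.
HSPA6, chr1:161524290-161524539, plus strand: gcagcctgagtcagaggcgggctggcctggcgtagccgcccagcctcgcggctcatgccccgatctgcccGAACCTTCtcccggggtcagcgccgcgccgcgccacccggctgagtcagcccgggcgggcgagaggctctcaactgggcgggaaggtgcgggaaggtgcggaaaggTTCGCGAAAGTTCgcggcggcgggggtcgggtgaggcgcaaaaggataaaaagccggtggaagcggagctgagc
HSPA1A, chr6:31815293-31815463, plus strand: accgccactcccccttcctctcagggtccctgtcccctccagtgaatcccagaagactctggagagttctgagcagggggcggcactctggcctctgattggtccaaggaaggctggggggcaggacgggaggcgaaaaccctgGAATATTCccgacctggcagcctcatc
HSPA1B, chr6:31827488-31827734, plus strand: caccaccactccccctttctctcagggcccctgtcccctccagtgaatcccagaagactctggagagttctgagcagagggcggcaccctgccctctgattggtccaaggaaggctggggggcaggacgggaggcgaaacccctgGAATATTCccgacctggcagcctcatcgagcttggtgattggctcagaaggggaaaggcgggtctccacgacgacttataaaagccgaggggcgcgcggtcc
HSPA4, chr5:133051763-133051961, plus strand: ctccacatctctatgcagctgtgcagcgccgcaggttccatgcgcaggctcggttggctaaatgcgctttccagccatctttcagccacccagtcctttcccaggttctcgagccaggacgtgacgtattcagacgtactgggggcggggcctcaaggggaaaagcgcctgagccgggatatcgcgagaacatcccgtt
Positions count back from the RefSeq gene start, with -1 the base just before it, which is the last of the full 250 bases. The printed stretches of HSPA1A, HSPA1B and HSPA4 stop short of that base. The full windows of HSPA1A and HSPA1B end at 31815542 and 31827737, inside the GENCODE gene bounds given below. HSPA6 had 3 such matches, starting at -180, -74 and -69, and the nearest 2 overlap into a run of 3 alternating units. HSPA1A and HSPA1B each had 1 match, starting at -106 (HSPA1A) and -105 (HSPA1B), and their 250 bases were 93.6% identical. HSPA8 had 4 matches, starting at -230, -225, -55 and -50, which form 2 runs of 3 units. The windows of HSPA1L and HSPA1A lie head to head and share 241 bases, so the match of HSPA1L, starting at -161, is the same site as that of HSPA1A. For HSPA4L, 1 of 3 windows had a match. HSPA2, HSPA4 and HSPA9 had none in this window, which says only that these letters are not there. The windows of HSPA1L, HSPA2, HSPA8 and HSPA9 begin within an exon annotated in GENCODE release 29, and HSPA14 had no window. In all, 6 of the 11 windows of 9 members had a match, with the site of HSPA1A and HSPA1L counted in both, beside 11.6% of 35116 windows of the same length genome-wide. A run of 3 units was found in 2 of the 11 windows (HSPA6 and HSPA8), beside 0.441% of all windows. These matches are descriptions and not measured binding.

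Reads of several members cannot be told apart with certainty. The coding sequences of HSPA1A and HSPA1B, which lie side by side on chromosome 6 (31815464 to 31817946 and 31827735 to 31830255, plus strand, GRCh38), were 99.8% identical. Of all 50-base words in their longest coding transcripts, 72.6% (HSPA1A) and 73.5% (HSPA1B) also occur in another annotated gene. HSPA6 on chromosome 1 (161524540 to 161526910, plus strand) shared 45.5% of its 50-base words with other genes, chiefly with its pseudogene HSPA7. The share was 22.2% for HSPA14, whose locus also holds a second gene entry of the same name, 15.4% for HSPA8, 7.2% for HSPA4L and at most 3.95% for the other 4 members. On the opposite strand the protein-coding gene CDNF overlaps HSPA14, and AL049869.3 and AC093591.2 overlap HSPA2 and HSPA4L. On the same strand AL671762.1 overlaps HSPA1B, AL590385.2 overlaps HSPA6 and AC113410.3 overlaps HSPA4. How the authors' counting treated strand and shared reads is not given in the sources used here, so values of HSPA1A, HSPA1B and HSPA6 stand for each gene with its copies, and reads of overlapping genes may be included elsewhere. In coding sequence HSPA1A was 81% identical to HSPA1L, 80.7% to HSPA6, 79.9% to HSPA2 and 73.3% to HSPA8. It was 51.8% identical to HSPA9, and 42.9% to HSPA4, 42.8% to HSPA4L and 42.4% to HSPA14.

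Library totals were 14796702 and 31300635 counts in treated cells and 29586475 and 16628710 counts in untreated cells. Treated replicate 2 and untreated replicate 1 had the higher totals and also stood apart in their counts. Among 11633 genes with at least 20 counts in all libraries, 86.8% and 88.0% of their counts were even numbers, against 50.4% and 49.8% in treated replicate 1 and untreated replicate 2. Whether reads there were counted more than once was not tested, so their totals may overstate depth, and values with their counts halved are given where they differ. Of the 7 smooth muscle markers, DES had 0 counts in all libraries and MYH11 at most 0.778 CPM (counts scaled to library size with TMM factors). CALD1 (445 and 523 CPM treated, 641 and 680 CPM untreated) and MYLK (122 and 134 CPM treated, 334 and 325 CPM untreated) were read in all 4 libraries. TAGLN had 15 and 14.6 CPM in treated cells and 27.1 and 26.1 CPM in untreated cells. ACTA2 (3.06 and 4.34 CPM treated, 6.64 and 4.36 CPM untreated) and CNN1 (2.06 and 2.07 CPM treated, 4.05 and 4.42 CPM untreated) lay lower. VIM, the mesenchymal intermediate filament gene, had 7190 and 6880 CPM in treated cells and 9890 and 10200 CPM in untreated cells. Of the 4 epithelial markers, KRT18 had 210 and 182 CPM in treated cells and 217 and 194 CPM in untreated cells. KRT8 had 16.7 and 12.9 CPM in treated cells and 22.1 and 18.1 CPM in untreated cells. EPCAM stayed at or under 0.809 CPM and CDH1 at or under 0.389 CPM. The 3 immune markers stayed at or under 0.607 CPM and the 3 endothelial markers at or under 1.45 CPM in all libraries. In bulk RNA, more cells that express a gene and more of its RNA per cell cannot be told apart.

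All 10 members passed the count filter, HSPA6 through its treated libraries alone. In 8 members both treated libraries lay above both untreated ones in CPM and in TPM (the deposited level per transcript length), as did 33.8% of the 12906 genes tested in CPM. In 0 members did both treated libraries lie below both untreated ones, against 33.7% of all genes. Since the list was drawn up with this contrast known, nothing is read from these counts. The median log2 fold change (treated over untreated) of the 9 members with reads in both groups was 0.54, with a range of -0.21 to 1.27, and over all genes tested it was -0.00. With HSPA6 at its lower bound the median of all 10 was 0.58. Genes outside the list were tested with edgeR's quasi-likelihood test, with a Benjamini-Hochberg adjusted p under 0.05 as the threshold.

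**Figure D1:**
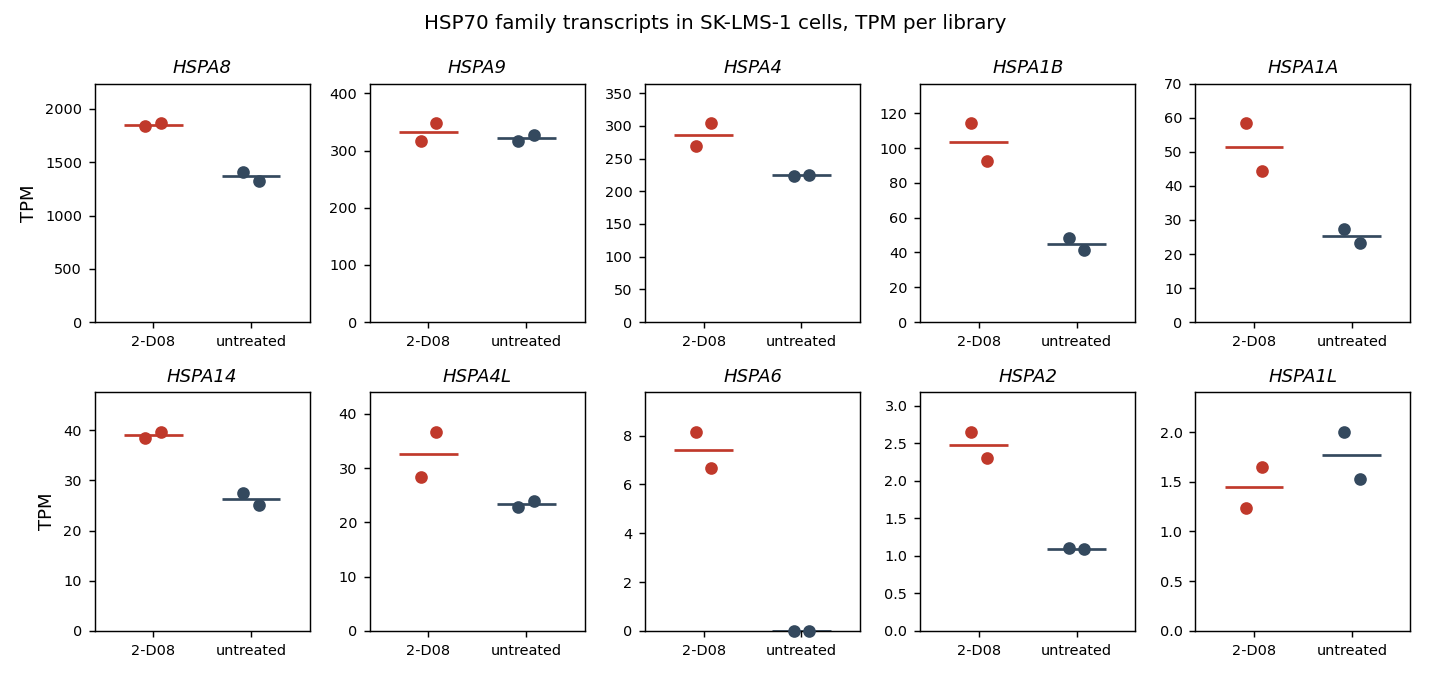
TPM (vertical axes, linear from 0, each gene on its own scale) of the 10 HSP70 family genes in the 2 libraries of 2-D08-treated cells and the 2 of untreated cells; each point is a library and each bar the group mean. Treated points lie above untreated points in 8 genes, while HSPA9 and HSPA1L overlap, and HSPA6 is at 0 in both untreated libraries. In CPM 33.8% of all genes tested separated this way.

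The strictly stress-inducible member HSPA6 had 205 and 360 counts in treated cells and 0 counts in both untreated libraries. In deposited TPM these were 8.14 and 6.67 in treated cells and 0 in both untreated libraries. Reads were found in each treated library and in no untreated one. Against a floor of 3 counts over the untreated group (0.065 CPM), HSPA6 was at least 189-fold higher, a bound that covers counting error only. The bound was 132-fold with counts halved in the 2 libraries of mostly even counts, 129-fold with all libraries thinned to the smallest total, 67.8-fold without untreated replicate 1 and 121-fold without untreated replicate 2. In the treated cells HSPA6 still made up only 4.50% and 4.65% of the TPM of HSPA6, HSPA1A and HSPA1B together.

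HSPA1B, which with HSPA1A encodes the major stress-inducible HSP70, had 205 and 174 CPM in treated cells and 83.7 and 74.3 CPM in untreated cells. Per length it stood at 114 and 92.6 TPM in treated cells and 48.2 and 41.5 TPM in untreated cells. Treated replicate 1 was the highest of the 4, and the groups did not overlap. The fitted log2 fold change was 1.26 ± 0.106 (SE), a 2.39-fold higher level. HSPA1A had 93.7 and 74.3 CPM in treated cells and 44.0 and 38.7 CPM in untreated cells (58.4 and 44.3 TPM against 27.5 and 23.2 TPM). Its libraries stood in the same order as those of HSPA1B, and its log2 fold change was 1.01 ± 0.122 (2.02-fold).

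Summing the counts of this near-identical pair avoids the question of which copy a read came from. The summed level was 299 and 248 CPM in treated cells and 128 and 113 CPM in untreated cells, a log2 fold change of 1.18 ± 0.108 (2.27-fold). Untreated cells therefore already held a level well above 0, unlike HSPA6. HSPA1A took 31.4% (95% exact Clopper-Pearson interval 30.0% to 32.7%) and 29.9% (28.9% to 31.0%) of the pair's counts in treated cells. In untreated cells it took 34.5% (32.9% to 36.0%) and 34.2% (32.1% to 36.4%). The intervals cover counting error only and take each count as a separate read. The HSPA1A share was lower in both treated libraries than in both untreated ones, though the split depends on how shared reads were assigned.

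HSPA2, a member best known from the testis, was scarce in both groups. It had 76 and 144 counts in treated cells and 58 and 34 counts in untreated cells, which is 5.05 and 4.67 CPM against 1.96 and 2.06 CPM. Both treated libraries lay above both untreated ones, with a log2 fold change of 1.27 ± 0.254 (2.42-fold), the largest standard error among the higher members with a fitted fold. On the log2(TPM + 1) scale, which compresses low values, its log2 fold change was 0.73. HSPA1L, the testis-enriched gene that starts head to head with HSPA1A, had 37 and 106 counts in treated cells and 114 and 50 counts in untreated cells. Its 2.46 and 3.44 CPM in treated cells overlapped the 3.84 and 3.03 CPM in untreated cells, with a log2 fold change of -0.21 ± 0.271. That value was -0.51 without treated replicate 2, -0.03 without treated replicate 1, -0.36 without untreated replicate 2 and -0.01 without untreated replicate 1. HSPA1A was higher in treated cells and HSPA1L was not, although their upstream windows overlap. This difference between the neighbours was not tested.

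HSPA8, the constitutive cytosolic HSC70 that also uncoats clathrin vesicles and carries clients to lysosomes, was the most abundant member in every library. It had 1842 and 1865 TPM in treated cells and 1410 and 1327 TPM in untreated cells. The treated libraries differed by little and both lay above the untreated ones. In CPM the levels were 2764 and 2893 in treated cells and 2043 and 1998 in untreated cells, with a log2 fold change of 0.49 ± 0.0836 (1.40-fold). Over all alternatives run this value stayed between 0.44 and 0.51, the narrowest range of the 9 members with a fitted fold.

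HSPA4 and HSPA4L encode HSP110-type proteins, which serve HSP70 as exchange factors and hold unfolded clients. HSPA4 had 270 and 304 TPM in treated cells and 224 and 225 TPM in untreated cells, and HSPA4L had 28.4 and 36.6 TPM in treated cells and 22.8 and 24.0 TPM in untreated cells. In both genes treated replicate 2 was the highest library. Their log2 fold changes were 0.37 ± 0.0967 (HSPA4, 1.29-fold) and 0.61 ± 0.114 (HSPA4L, 1.53-fold). Both values depended on the treated library used: without treated replicate 2 they were 0.25 and 0.42, and without treated replicate 1 they were 0.47 and 0.77. HSPH1, the third cytosolic HSP110 gene and not a member of the list, had 354 and 438 CPM in treated cells and 197 and 209 CPM in untreated cells. It rose by 0.96 ± 0.106 in log2 (edgeR adjusted p = 1.72e-05).

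HSPA14 encodes the ribosome-associated HSP70 that works on nascent chains with the J-domain protein DNAJC2. HSPA14 had 38.5 and 39.6 TPM in treated cells and 27.4 and 25.0 TPM in untreated cells, a log2 fold change of 0.54 ± 0.117 (1.45-fold). The treated libraries lay close together and above the untreated ones. Its partner DNAJC2 had 200 and 258 CPM in treated cells and 135 and 160 CPM in untreated cells. DNAJC2 rose by 0.64 ± 0.121 in log2 (edgeR adjusted p = 0.00119), a call kept under all 15 alternatives run.

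HSPA9 encodes mortalin, the HSP70 of the mitochondrial matrix that pulls in and folds imported proteins. It had 317 and 348 TPM in treated cells and 318 and 327 TPM in untreated cells, so the groups overlapped. Its log2 fold change was 0.09 ± 0.0938, positive in 14 of 15 alternatives with a range of -0.01 to 0.18. GRPEL1, its nucleotide exchange factor, did differ, with 81.3 and 81.5 CPM in treated cells and 48.3 and 46.7 CPM in untreated cells. GRPEL1 rose by 0.77 ± 0.0969 in log2 (edgeR adjusted p = 5.3e-05). It was the only 1 of 8 mitochondrial partner genes past the threshold in that fit. That is 12.5% higher and 0% lower, beside 17.1% and 16.9% of all genes tested. The J-domain partner DNAJA3 had a log2 fold change of 0.22 (adjusted p = 0.111), the iron-sulfur cluster cochaperone gene HSCB 0.38 (0.0878), and DNLZ, whose product keeps mortalin soluble, -0.82 (0.0819). DNLZ was past the threshold without treated replicate 1 (-1.18, adjusted p = 0.0125) and with limma-voom (0.0487), and at -0.45 (0.42) without treated replicate 2. HSCB was past it without treated replicate 2 (0.53, 0.0108) and at 0.24 (0.253) without treated replicate 1.

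**Figure D2:**
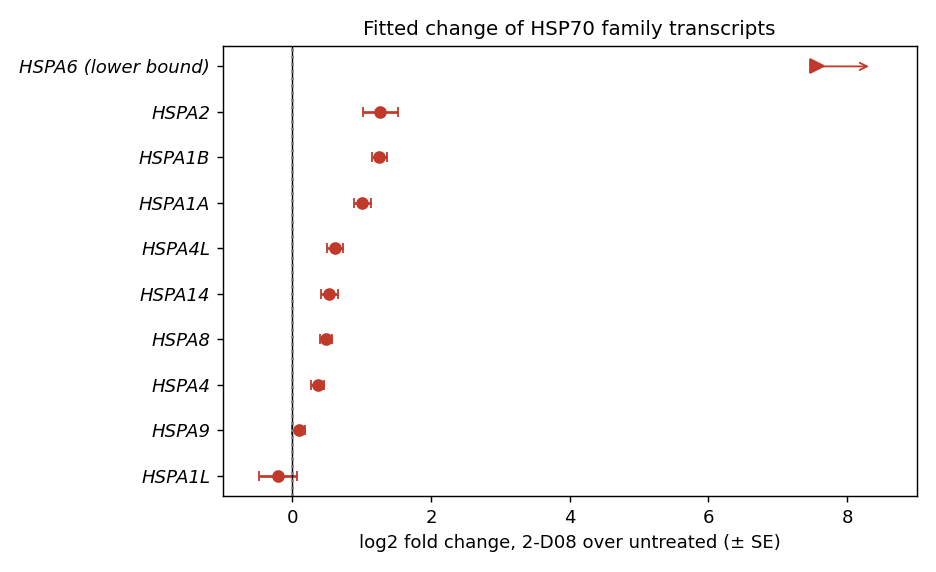
Fitted log2 fold change of each HSP70 family gene, 2-D08-treated over untreated cells (horizontal axis), with points for the estimate and bars for ± SE; the triangle and arrow mark HSPA6, for which only a lower bound of 7.57 exists, and the dotted line is the median over all genes tested (-0.00). HSPA2, HSPA1B and HSPA1A lie above 1, HSPA9 and HSPA1L lie near 0.

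Per transcript length the levels spanned a wide range. In treated cells the order of mean TPM was HSPA8, HSPA9, HSPA4, HSPA1B, HSPA1A, HSPA14, HSPA4L, HSPA6, HSPA2 and HSPA1L, and no 2 neighbours in that order overlapped between their libraries. In untreated cells it was HSPA8, HSPA9, HSPA4, HSPA1B, HSPA14, HSPA1A, HSPA4L, HSPA1L, HSPA2 and HSPA6. There HSPA14 overlapped HSPA1A, and HSPA1A overlapped HSPA4L. The order rests on the lengths behind the deposited TPM. Per kilobase of the longest coding transcript HSPA1L lay above HSPA2 in both treated libraries, and HSPA1B overlapped HSPA4 there, while HSPA1A lay above HSPA14 in all 4 libraries.

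Summed over the 10 members, the level was 2680 and 2740 TPM in treated cells and 2081 and 1996 TPM in untreated cells, which is 0.361% and 0.382% of all listed TPM against 0.273% and 0.268%. The means were 2710 ± 42.4 TPM in treated cells and 2038 ± 60.4 TPM in untreated cells (SD, n = 2 each), a ratio of 1.33. HSPA8 alone averaged 1853 ± 16.3 TPM in treated cells and 1369 ± 59 TPM in untreated cells. Its difference of 485 TPM was 72.2% of the summed difference of 672 TPM. Without HSPA8 the sums were 857 ± 26.1 TPM in treated cells and 670 ± 1.39 TPM in untreated cells, a ratio of 1.28. HSPA1A and HSPA1B together averaged 155 ± 25.3 TPM in treated cells and 70.2 ± 7.79 TPM in untreated cells, a ratio of 2.20.

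The makeup of this pool shifted only in part. HSPA8 held 68.7% and 68.1% of it in treated cells and 67.8% and 66.5% in untreated cells. The HSPA1A and HSPA1B share was 6.44% and 4.99% in treated cells and 3.64% and 3.24% in untreated cells. HSPA9 made up 11.8% and 12.7% in treated cells and 15.3% and 16.4% in untreated cells, so its share was lower in both treated libraries while its own level overlapped. HSPA4 kept overlapping shares, 10.1% and 11.1% in treated cells and 10.8% and 11.3% in untreated cells.

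**Figure D3:**
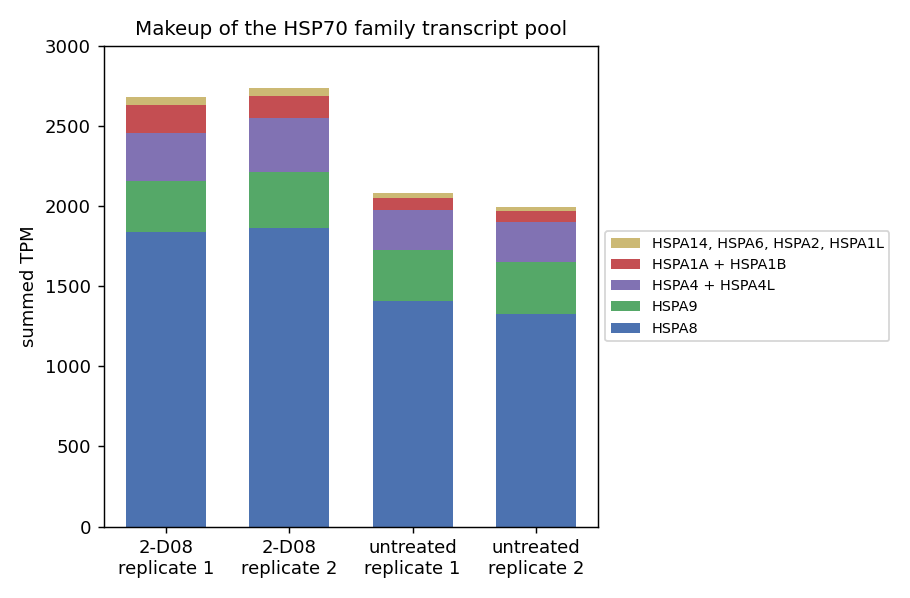
Summed TPM of the HSP70 family (vertical axis, from 0) in each of the 4 libraries, stacked by member, with 2-D08-treated replicates on the left and untreated replicates on the right. Totals are 2680 and 2740 TPM in treated cells and 2081 and 1996 TPM in untreated cells, and HSPA8 forms the largest block in each.

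These shares rest on the transcript lengths behind the deposited TPM. Taking counts per TPM relative to HSPA8 as the implied length, HSPA4 came out at 0.878 to 0.901 of the length of HSPA8, whereas its longest coding transcript in GENCODE release 29 is 1.96 times as long. For HSPA4L the implied ratio was 1.84 to 2.05 against 4.38, and for HSPA9 1.23 to 1.25 against 1.92. It was 1.23 to 1.31 against 2.19 for HSPA2. In the other direction it was 1.31 to 1.34 against 1.03 for HSPA1L and 1.19 to 1.21 against 1.02 for HSPA1B. Scaled instead by those longest coding transcripts (an alternative chosen after the data were seen), HSPA8 held 76.1% and 76.2% of the pool in treated cells and 76.4% and 75.9% in untreated cells. HSPA9 held 8.39% and 9.19% in treated cells and 11.2% and 11.9% in untreated cells, and HSPA4 held 5% and 5.57% in treated cells and 5.55% and 5.93% in untreated cells. The size of a share therefore moved with the lengths, and the lower HSPA9 share in treated cells was found on both scales. Both scales rest on the same counts, so the second is no independent check of that direction.

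The genes that work with HSP70 were compared through 8 lists of 57 genes that are not members, of which 56 were tested. Of these, 20 (35.7%) rose and 4 (7.14%) fell, beside 17.1% and 16.9% of all genes tested, and their median log2 fold change was 0.22 beside -0.00 over all genes. The lists were drawn up with earlier results known, so the counts are a description. The counts were 12 higher and 0 lower with limma on log2(TPM + 1), where 5.44% of all genes were higher and 6.94% lower. They were 10 and 0 without untreated replicate 1 (7.34% and 7.09% of all genes) and 12 and 0 without untreated replicate 2 (9.81% and 10.1%).

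Of the 10 J-domain cochaperones 5 (50%) rose and 0 fell (17.1% and 16.9% of all genes), with a list median of 0.25. DNAJA1, a major farnesylated partner of HSPA8 in the cytosol, had 390 and 443 CPM in treated cells and 210 and 212 CPM in untreated cells. It rose by 0.98 ± 0.0942 in log2 (edgeR adjusted p = 5e-06). DNAJA2 rose by 0.43 (0.00403) and DNAJB1, the heat-inducible HSP40 that also restrains HSF1, by 0.32 (0.0142), in log2 with the adjusted p in brackets. Without untreated replicate 1 the adjusted p was 0.12 for DNAJA2 and 0.236 for DNAJB1, and without untreated replicate 2 it was 0.187 for DNAJB1. DNAJA4, named after its values were seen, had 14 and 24 counts in treated cells and 6 and 6 counts in untreated cells (log2 fold change 1.64, adjusted p = 0.0443, and 0.181 with DESeq2). With counts halved in the libraries of mostly even counts DNAJA4 was at 1.55 (edgeR adjusted p = 0.0512), so its call was lost. DNAJB2, DNAJB4, DNAJB5, DNAJB6 and DNAJC7 did not pass the threshold.

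Of the 7 nucleotide exchange factors 4 (57.1%) rose and 0 fell (17.1% and 16.9% of all genes), with a list median of 0.29. HSPH1, given above, moved most. BAG1 and BAG3, which link HSP70 to the proteasome and to autophagy, both rose by 0.42 in log2 (edgeR adjusted p = 0.00904 and 0.0088), and BAG5 rose by 0.29 (0.0342). Without untreated replicate 1 the adjusted p was 0.152 for BAG1, 0.103 for BAG3 and 0.369 for BAG5. Without treated replicate 2 BAG5 was at 0.19 (0.0999), and without treated replicate 1 BAG3 was at 0.27 (0.0145). Thus only the HSPH1 call of this list was kept under all 15 alternatives. BAG2, BAG4 and HSPBP1 did not pass.

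Of the 7 genes that pass clients onward or receive them 3 (42.9%) rose and 0 fell (17.1% and 16.9% of all genes). Their median log2 fold change was 0.23. HSP90AA1, the inducible cytosolic HSP90, averaged 3854 ± 405 CPM in treated cells and 2315 ± 181 CPM in untreated cells (SD, n = 2 each). It rose by 0.74 ± 0.0965 in log2 (edgeR adjusted p = 7.64e-05). TOMM34, a scaffold between HSP70 and HSP90 on the way to mitochondria, rose by 0.51 (0.000615), and STIP1, the adaptor that hands clients from HSP70 to HSP90, by 0.46 (0.00134; 0.0561 without untreated replicate 2). The constitutive HSP90AB1 had a log2 fold change of 0.23 with an adjusted p of 0.054. HSP90AB1 was past the threshold without treated replicate 1 (0.31, adjusted p = 0.000642), with limma-voom (0.0418) and without TMM factors (0.0368), and at 0.14 (0.152) without treated replicate 2.

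Among other heat-inducible chaperone genes 4 of 10 (40%) rose and 2 (20%) fell, beside 17.1% and 16.9% of all genes. The list median was 0.38. CHORDC1, a cochaperone of HSP90, averaged 184 ± 29.6 CPM in treated cells and 96.9 ± 5.31 CPM in untreated cells and rose by 0.93 ± 0.111 in log2 (edgeR adjusted p = 3.73e-05). FKBP4, an HSP90-bound prolyl isomerase, rose by 0.71 (5.78e-05), HSPE1, the mitochondrial cochaperonin, by 0.56 (0.00105) and AHSA1, the activator of the HSP90 ATPase, by 0.40 (0.0045). Without untreated replicate 1 the adjusted p was 0.0641 for HSPE1 and 0.205 for AHSA1. The genes that fell, named after their values were seen, were the small heat shock protein gene HSPB1 (log2 fold change -0.31, adjusted p = 0.0377) and SERPINH1, the collagen chaperone (-0.28, 0.0438). HSPB1 averaged 149 ± 23.3 CPM in treated cells and 185 ± 8.27 CPM in untreated cells. Without untreated replicate 1 the adjusted p was 0.32 for HSPB1 and 0.447 for SERPINH1, and without treated replicate 2 it was 0.108 and 0.0973. The log2 fold change of HSPB1 was -0.17 without treated replicate 2 and -0.48 without treated replicate 1. HSPD1 (0.25, edgeR adjusted p = 0.0565), HSPB8 (0.36, 0.0772), CRYAB (0.81, 0.132) and DEDD2 (0.24, 0.329) did not pass the threshold.

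None of the 3 heat shock factor genes passed the threshold. HSF1 averaged 39.0 ± 5.04 CPM in treated cells and 36.1 ± 3.54 CPM in untreated cells (log2 fold change 0.10 ± 0.125, edgeR adjusted p = 0.576). HSF2 had a log2 fold change of 0.22 (0.148) and HSF4 one of -0.18 (0.772). HSBP1, a small protein that binds HSF1, rose by 0.31 (0.0271), and without untreated replicate 1 it was at 0.20 (0.471). A transcript level does not measure HSF1 activity.

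Among the other HSP70 superfamily genes 0 of 4 tested rose and 2 (50%) fell, beside 17.1% and 16.9% of all genes. The list median was -0.17. HSPA5, the endoplasmic reticulum HSP70 known as BiP, averaged 828 ± 39.8 CPM in treated cells and 1004 ± 43.7 CPM in untreated cells and fell by 0.28 in log2 (edgeR adjusted p = 0.0263). HYOU1, the large HSP110-type chaperone of the same compartment, averaged 249 ± 8.41 CPM in treated cells and 307 ± 8.76 CPM in untreated cells and fell by 0.31 in log2 (0.0158). Both calls were lost without untreated replicate 1 (adjusted p = 0.204 and 0.297) and without untreated replicate 2 (0.35 and 0.151). HSPA12A (-0.05, 0.749) and HSPA13 (-0.04, 0.804) were close to 0, and HSPA12B, with 0.263 CPM in treated cells and 0.226 CPM in untreated cells on average, was too low to test.

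Of the 6 genes that serve HSPA5 in the endoplasmic reticulum 2 (33.3%) rose and 0 fell (17.1% and 16.9% of all genes). Their median log2 fold change was 0.30. DNAJB11, a J-domain protein of the lumen, had 114 and 109 CPM in treated cells and 74.1 and 70.7 CPM in untreated cells and rose by 0.62 ± 0.0921 in log2 (edgeR adjusted p = 0.000199). DNAJB9, which represses the sensor IRE1 through HSPA5, rose by 0.45 (0.0113; 0.119 without untreated replicate 1). SDF2L1 (0.42, 0.121) and DNAJC3 (0.18, 0.201) did not pass the threshold. SDF2L1 passed it without treated replicate 2 (0.64, adjusted p = 0.0113) and was at 0.20 (0.441) without treated replicate 1, and DNAJC3 passed it without treated replicate 1 (0.27, 0.0131) and was at 0.06 (0.667) without treated replicate 2.

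**Figure D4:**
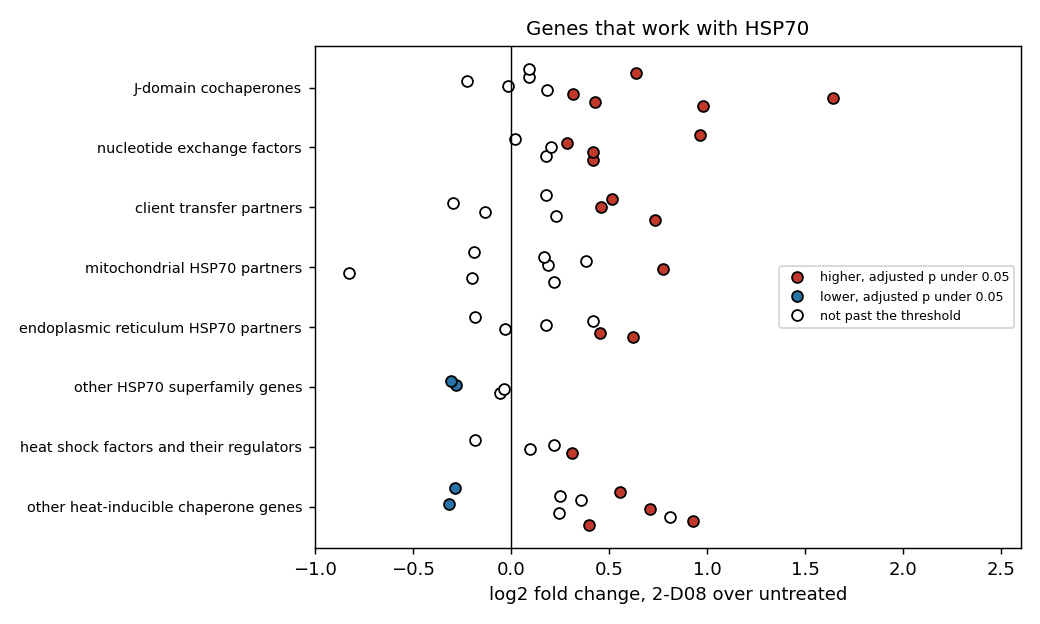
Log2 fold change, 2-D08-treated over untreated cells (horizontal axis), of the 56 tested genes in 8 lists of HSP70 partners and related genes; each point is a gene, filled red where it was higher and blue where it was lower with an edgeR adjusted p under 0.05, and open otherwise. Of the points, 20 are red and 4 are blue, and the blue ones are HSPA5, HYOU1, HSPB1 and SERPINH1.

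Of the 24 partner genes called, 9 kept the call under all 15 alternatives run. They were DNAJA1, DNAJC2, HSPH1, TOMM34, HSP90AA1, GRPEL1, DNAJB11, CHORDC1 and FKBP4. The other 15 lost it under at least 1.

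Genes whose profile lay nearest to the summed HSPA1A and HSPA1B counts were found by the Euclidean distance of mean-centred log2 CPM over the 4 libraries. The nearest 5 were NFKBIB (distance 0.0497), PLAUR (0.0859), MARCKSL1 (0.0921), OAS3 (0.105) and EFR3B (0.112). NFKBIB had 30.0 and 24.1 CPM in treated cells and 12.7 and 11.5 CPM in untreated cells. The log2 fold changes of these 5 genes ran from 1.07 to 1.15, and in each, treated replicate 1 was the highest library, as in the HSPA1A and HSPA1B sum. The 5 genes were picked for this likeness in the same 4 libraries, so it is a description and no finding of its own.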

How the data were processed

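Libraries were built with a KAPA kit after ribosomal RNA had been removed from total RNA, per the labels' protocols. The genome build was GRCh38 and the tools were STAR 2.7.8a, cutadapt 3.4 and DESeq2, per the submitters' processing notes; for the counting tool and the annotation the entry is "not given in the sources used here". As tables, the authors deposited whole-number read counts per gene, unnormalised. They also deposited TPM values, which sum to 716934 to 761770 per library over the listed genes. A further deposited table, on a log2-like scale with a shared lowest value, entered no comparison.

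The analysis ran in R 4.3.3, using edgeR 4.0.16 (filterByExpr, minimum count 10; TMM; robust quasi-likelihood, two-sided; Benjamini-Hochberg over 12906 genes; threshold 0.05), limma 3.58.1 and DESeq2 1.42.0. Standard errors came from the F statistic. Positions came from GENCODE release 29 and upstream sequences from RefSeq (GRCh38.p14). The members and all lists were chosen with earlier results of these data known. Named partner genes were up to 4 of each list with the smallest p and a mean of at least 1 CPM, with every gene of the other HSP70 superfamily list. The named profiles were the 5 nearest to the HSPA1A and HSPA1B sum. Replicates differed beyond sampling noise (chi-square per degree of freedom 13.2 treated, 4.55 untreated) and were kept as 2 per group. Alternatives were DESeq2, limma-voom, RLE factors, thinned counts, a replicate block, a 5 CPM mean minimum, no filter on low counts, library sizes without TMM, limma on TPM with pseudocounts of 1 and 0.1 (log2 scale), each library left out, summing HSPA1A and HSPA1B, and, chosen after seeing the data, counts halved in the libraries of mostly even counts.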

Additional observations from a re-analysis of the deposited data

How the results depend on the processing

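Over all genes 4376 passed the threshold (2201 higher, 2175 lower), and 24 partner genes did (20 and 4). Limma gave 1598 genes (702 higher, 896 lower) and 12 partner genes (12 and 0) on log2(TPM + 1), and 1608 (714, 894) and 11 (11 and 0) on log2(TPM + 0.1). Without TMM factors 2 partner genes fell. Leaving out each library in turn gave 1866 to 6077 genes (949 to 2931 higher, 917 to 3146 lower) and 10 to 32 partner genes (10 to 26 higher, 0 to 6 lower), with the fewest without untreated replicate 1. The replicate block gave 6239 genes (24.3% of all higher, 24% lower) and 36 partner genes (30 higher, 6 lower). HSP90AB1, DNAJA3, HSCB, SDF2L1 and HSF2, all higher, were among the partner genes added. Others added, both higher and lower, are not named here. Deviations of same-numbered libraries correlated at 0.212 over 12906 genes, and the labels give no shared culture or day. Counts halved in the libraries of mostly even counts gave 4283 genes. The cause of these changes was not tested. The summed TPM ratio of 1.33 was 1.28 without HSPA8 and 1.30 to 1.36 with each library left out. The log2 fold change of HSF1 turned to -0.027 on log2(TPM + 1) and -0.028 on log2(TPM + 0.1). With each library left out it ran from -0.039 to 0.223 for HSF1, from -0.131 to 0.045 for HSPA13 and from -0.386 to 0.062 for HSF4. With 2 libraries a group, 1 left out assumes that the lone library varies like the others. Few reads lie behind HSPA2, HSPA1L, HSF4, DNAJA4, DNLZ, CRYAB and HSPA12B.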
